A study of Bos taurus with 22 samples.

Results

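ASAP3, MYDGF and COPE are 3 genes grouped here under the secretory pathway. Their RNA was sequenced in circulating white blood cells of 22 heifers, with 1 library of polyadenylated RNA per heifer. They were chosen on the difference between Sub-Fertile and Fertile heifers in these same libraries: each had an unadjusted p under 0.01 for fertility in edgeR's quasi-likelihood test and in the Wald and likelihood ratio tests of DESeq2. The rule took 25 of 13526 genes tested, and 16 of them (0.118%) were lower in Sub-Fertile heifers, these 3 among them. The fertility differences below are therefore a description with no test. The breed difference and its interaction with fertility were not contrasts of the choice. The variation within groups did enter it, since each p weighs the difference against that variation, so genes with a small spread were favoured. By the largest p of the 3 tests, which was edgeR's for each of these genes, MYDGF (0.00654) and COPE (0.00885) lay inside the limit of 0.01, ASAP3 (0.00967) was the last of the 25 inside it, and JMJD1C (0.0102) was the next outside.

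The heifers were purebred, had estrus synchronized with GnRH, progesterone and prostaglandin, and were bled at their first artificial insemination. There were 5 Holstein Sub-Fertile, 5 Holstein Fertile, 7 Angus Sub-Fertile and 5 Angus Fertile heifers. Fertile heifers conceived to that insemination and calved, Angus heifers were Sub-Fertile when neither repeated insemination nor a bull made them pregnant, and Holstein heifers were Sub-Fertile when they needed several inseminations. Holstein heifers averaged 12 months of age and carried a progesterone device for 5 days, against 14 months and 7 days in Angus heifers, so breed cannot be told apart from age, synchronization or the definition of sub-fertility.

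Proteins that a cell secretes, or places in its membranes, enter the endoplasmic reticulum (ER), fold there with the help of chaperones, and leave for the Golgi apparatus in vesicles with a COPII coat. Vesicles with a COPI coat carry material between Golgi cisternae and bring escaped ER proteins and cargo receptors back. Small GTPases of the Arf family recruit the COPI coat when they bind GTP, and GTPase-activating proteins (ArfGAPs) end that state. COPE encodes the epsilon subunit of the COPI coat. ASAP3 encodes an ArfGAP with SH3, ankyrin repeat and PH domains that is known for roles at the cell periphery and in cell movement. It stands in this group only as a member of the ArfGAP family. MYDGF encodes myeloid-derived growth factor, a protein of the ER and Golgi that monocytes and macrophages can secrete, known in mice for a protective role in the injured heart.

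On the ARS-UCD1.2 assembly with Ensembl annotation, all of them are protein-coding genes. ASAP3 (ENSBTAG00000012263) lies on chromosome 2 from 129367152 to 129417868, MYDGF (ENSBTAG00000018655) on chromosome 7 from 19470114 to 19482055, and COPE (ENSBTAG00000000810) on the same chromosome from 4291940 to 4310862. In the RefSeq annotation of ARS-UCD2.0, MYDGF overlaps TNFAIP8L1, ASAP3 overlaps LOC112443701 and LOC132343457, and COPE overlaps no other gene. The sources used here do not say whether reads were counted by strand, and counts of MYDGF and ASAP3 could hold reads of those neighbours.

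Total counts per heifer ranged from 12182400 to 49228035. At these depths ASAP3 had 36 to 325 counts in a heifer, MYDGF 602 to 2971 and COPE 1954 to 8977. The level of a gene is given as CPM, its counts for every 1000000 counts of the heifer. The counting error alone was wide for ASAP3: the 36 counts of Holstein Sub-Fertile heifer 1 gave 2.32 CPM with an exact 95% binomial interval of 1.63 to 3.21 CPM. In 8 pairs, called close pairs here, the libraries of both heifers resembled each other more than those of any other pairing. Their biological coefficient of variation, the spread between libraries beyond counting error, was 0.0366 to 0.0828, against 0.0980 to 0.260 in the other 223 pairings. Of these close pairs, 6 joined a Sub-Fertile with a Fertile heifer and 4 joined a Holstein with an Angus heifer. The fertility and breed differences of the 3 genes and the correlations are given with and without use of the pairs. The interaction and the differences of other genes come only from models that ignore the pairs, and what makes the heifers of a pair alike was not tested.

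ASAP3, the ArfGAP, was the least counted and the most variable of the 3 genes. It had 2.32, 2.12, 1.90, 3.43 and 2.97 CPM in the Holstein Sub-Fertile heifers, against 4.48, 4.92, 3.72, 4.02 and 8.53 CPM in the Holstein Fertile heifers. In Angus Sub-Fertile heifers it ranged from 3.32 to 5.47 CPM with a median of 4.32 CPM, against 7.76, 3.39, 3.76, 3.53 and 6.18 CPM in Angus Fertile heifers. The Holstein groups did not overlap, as all 5 Sub-Fertile heifers were below all 5 Fertile heifers, which held for 126 of 13526 genes tested (0.932%). The gap between them was smaller than the counting error: Holstein Sub-Fertile heifer 4 had an interval of 2.61 to 4.43 CPM and Holstein Fertile heifer 8 one of 2.85 to 4.78 CPM. The Angus groups overlapped, and 6 of 7 Angus Sub-Fertile heifers were above the lowest Angus Fertile heifer.

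Mean ASAP3 was 2.55 ± 0.635 CPM in Holstein Sub-Fertile heifers (SD, n = 5) and 5.13 ± 1.95 CPM in Holstein Fertile heifers (SD, n = 5), a ratio of 0.496. In Angus it was 4.38 ± 0.878 CPM in Sub-Fertile heifers (SD, n = 7) and 4.92 ± 1.95 CPM in Fertile heifers (SD, n = 5), a ratio of 0.890. The Angus medians ran the other way, at 4.32 CPM in Sub-Fertile and 3.76 CPM in Fertile heifers. Holstein Fertile heifer 10 (8.53 CPM) and Angus Fertile heifer 18 (7.76 CPM), which form a close pair, had the highest levels of all. The Holstein Sub-Fertile heifers held the 4 lowest levels among the 22 heifers, and only heifer 4 of that group stood among the others.

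MYDGF, the growth factor, was more even. It had 52.5, 54.6, 52.4, 47.2 and 52.5 CPM in Holstein Sub-Fertile heifers, against 53.8, 49.9, 65.0, 58.2 and 73.3 CPM in Holstein Fertile heifers. In Angus Sub-Fertile heifers it ranged from 45.8 to 65.5 CPM with a median of 56.6 CPM, against 71.7, 61.2, 60.4, 64.4 and 56.9 CPM in Angus Fertile heifers. The groups overlapped in both breeds, with 4 of 5 Holstein and 3 of 7 Angus Sub-Fertile heifers above the lowest Fertile heifer of their breed. Heifers 10 and 18 again had the highest levels.

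The mean of MYDGF was 51.9 ± 2.75 CPM in Holstein Sub-Fertile and 60.0 ± 9.28 CPM in Holstein Fertile heifers (SD, n = 5 each), a ratio of 0.864. It was 55.3 ± 6.51 CPM in Angus Sub-Fertile (SD, n = 7) and 62.9 ± 5.59 CPM in Angus Fertile heifers (SD, n = 5), a ratio of 0.878. The difference was of about the same size in both breeds, and the spread was smallest in Holstein Sub-Fertile heifers.

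COPE, the coat subunit, had the narrowest range relative to its level. It had 158, 164, 156, 154 and 158 CPM in Holstein Sub-Fertile heifers, against 156, 158, 168, 186 and 183 CPM in Holstein Fertile heifers. In Angus Sub-Fertile heifers it ranged from 149 to 177 CPM with a median of 167 CPM, against 180, 183, 182, 197 and 165 CPM in Angus Fertile heifers. The groups overlapped in both breeds, although 4 of 5 Angus Fertile heifers were above the highest Angus Sub-Fertile heifer. In neither breed were all Sub-Fertile heifers below all Fertile ones for MYDGF or COPE, and in Angus this held for 7 of 13526 genes (0.0518%), none of them one of the 3 genes.

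Mean COPE was 158 ± 3.56 CPM in Holstein Sub-Fertile and 170 ± 13.9 CPM in Holstein Fertile heifers (SD, n = 5 each), a ratio of 0.928. In Angus it was 166 ± 9.30 CPM in Sub-Fertile (SD, n = 7) and 181 ± 11.5 CPM in Fertile heifers (SD, n = 5), a ratio of 0.917. The heifer with the highest COPE was Angus Fertile heifer 21 (197 CPM), and heifers 10 (183 CPM) and 18 (180 CPM) did not lead.

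**Figure D1:**
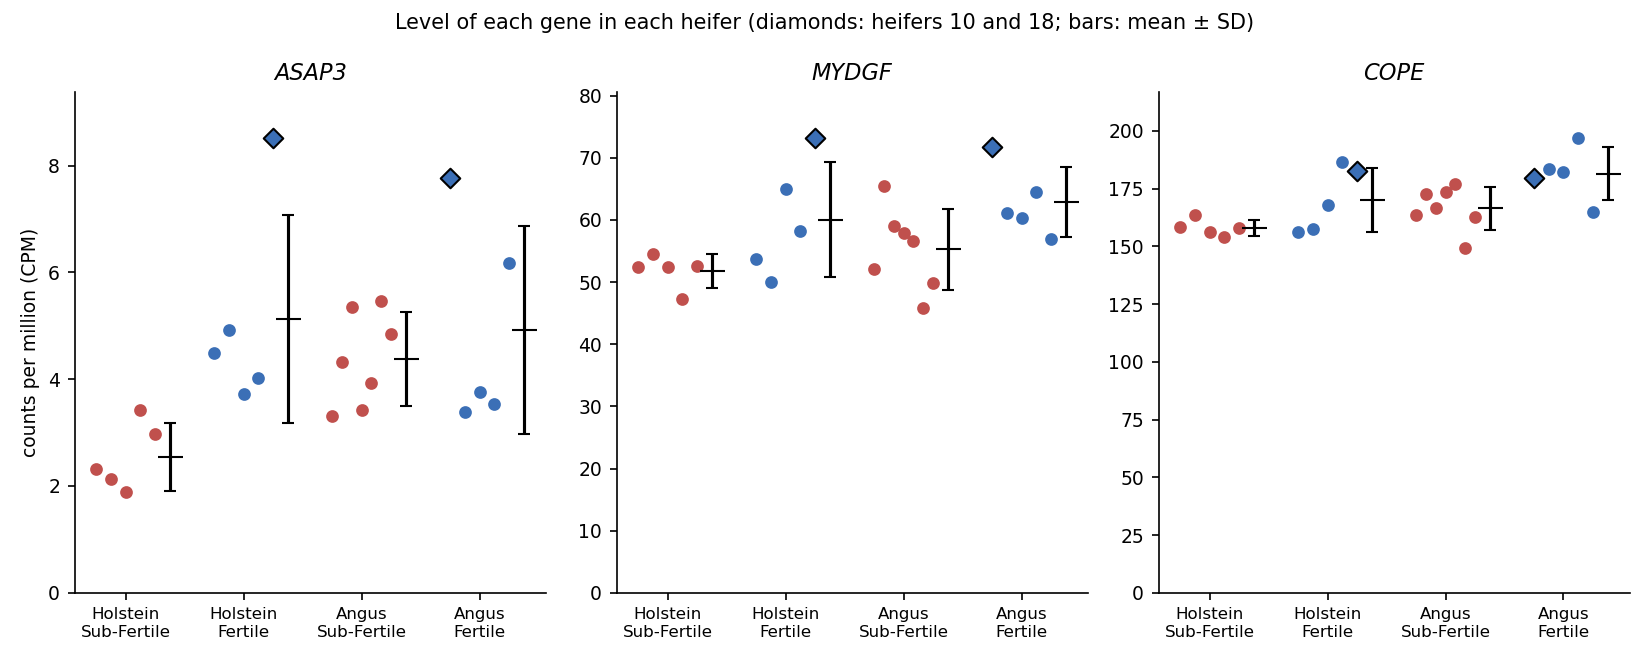
Levels of ASAP3, MYDGF and COPE in CPM (vertical axes, from 0) for each heifer in the 4 groups, with Sub-Fertile heifers in red, Fertile heifers in blue, and the mean ± SD at the right of each group. Heifers 10 and 18 (diamonds) lead for ASAP3 (8.53 and 7.76 CPM) and MYDGF (73.3 and 71.7 CPM), and the Holstein groups do not overlap for ASAP3.

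In the model with terms for breed and fertility over all heifers, the log2 fold change of Sub-Fertile over Fertile heifers was -0.56 (SE 0.199) for ASAP3, -0.20 (SE 0.0662) for MYDGF and -0.12 (SE 0.0406) for COPE. The median over all 13526 genes tested was 0.0020. No gene reached an adjusted p under 0.05 for fertility in edgeR or DESeq2, where 354 and 529 genes had an unadjusted p under 0.05, and 225 of the 354 (1.66% of all genes tested) were lower in Sub-Fertile heifers. In Holstein heifers alone the log2 fold changes were -1.04 (SE 0.266) for ASAP3, -0.21 (SE 0.0998) for MYDGF and -0.11 (SE 0.0626) for COPE. In Angus heifers alone they were -0.17 (SE 0.229), -0.19 (SE 0.0902) and -0.12 (SE 0.0615). In bulk samples such as these, fewer cells of a type and less RNA of a gene per cell cannot be told apart.

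The choice itself rested on few heifers. Without heifers 10 and 18 the log2 fold change of Sub-Fertile over Fertile was -0.32 (SE 0.172) for ASAP3, -0.13 (SE 0.0616) for MYDGF and -0.11 (SE 0.0439) for COPE, and the rule then took 9 genes, none of them one of the 3. With each of the 22 heifers left out in turn, ASAP3 met the rule in 7 fits, MYDGF in 14 and COPE in 7. All 3 met it together in 0 of these fits, and none met it in 4. All 22 fits kept a negative log2 fold change for each gene: ASAP3 lay between -0.65 and -0.42, MYDGF between -0.22 and -0.16, and COPE between -0.13 and -0.10. The smallest sizes of ASAP3 and MYDGF came without heifer 10, and that of COPE without heifer 21.

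**Figure D2:**
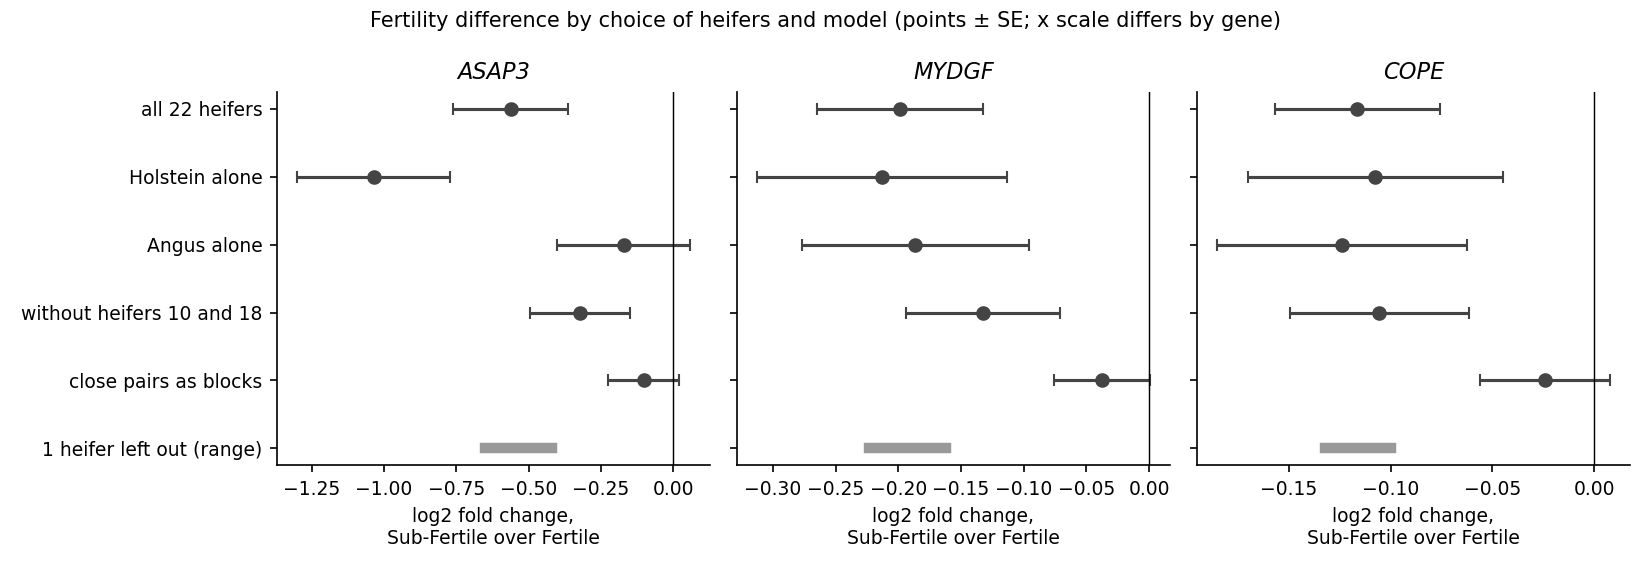
Log2 fold change of Sub-Fertile over Fertile heifers (horizontal axes, with a scale of its own for each gene) for ASAP3, MYDGF and COPE, as points with SE under 5 choices of heifers and model, and as a grey bar for the range with 1 heifer left out. Every point is below 0, and the points with close pairs as blocks lie nearest to it (-0.10, -0.038 and -0.024). Heifers outside the pairs do not enter those points.

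Of the 6 close pairs of a Sub-Fertile and a Fertile heifer, 4 joined heifers of the same breed and 2 joined an Angus Sub-Fertile with a Holstein Fertile heifer, so that breed enters their difference. ASAP3 had 2.97 CPM in Holstein Sub-Fertile heifer 5 and 4.48 CPM in Holstein Fertile heifer 6, the widest gap of the 6 pairs. In the other pairs the Sub-Fertile heifer was lower in 2 and higher in 3. The mean log2 difference of Sub-Fertile minus Fertile over the 6 pairs was -0.058 ± 0.313 (SD, n = 6) for ASAP3, with 3 of 6 lower in the Sub-Fertile heifer. It was -0.045 ± 0.0685 for MYDGF, with 4 of 6 lower, and -0.021 ± 0.0510 for COPE, with 3 of 6 lower. Over the 4 pairs within a breed the mean was -0.18 ± 0.324 for ASAP3 (3 of 4 lower), -0.039 ± 0.0678 for MYDGF (3 of 4) and -0.022 ± 0.0450 for COPE (2 of 4). In the 2 pairs across breeds ASAP3 was higher in the Sub-Fertile heifer, by 0.15 and 0.21. All of the means over 6 and over 4 pairs are smaller than the spread between the pairs.

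With the pairs as blocks in the model, the log2 fold change was -0.10 (SE 0.123) for ASAP3, -0.038 (SE 0.0384) for MYDGF and -0.024 (SE 0.0319) for COPE. Heifers outside the close pairs do not enter this estimate, among them heifers 2 and 3, which had the lowest ASAP3. Pairs within a fertility group, such as heifers 10 and 18, enter it only through the breed term. The change from the fit over all heifers is therefore also a change of heifers. Heifers of a pair were alike in these genes as in others. The median absolute log2 difference between the heifers of a pair was 0.206 for ASAP3, 0.0422 for MYDGF and 0.0430 for COPE. Over the other pairings it was 0.533 for ASAP3, 0.186 for MYDGF and 0.114 for COPE. The pair of heifers 10 and 18 differed by 0.13 for ASAP3, 0.031 for MYDGF and 0.023 for COPE on the log2 scale, Holstein minus Angus.

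**Figure D3:**
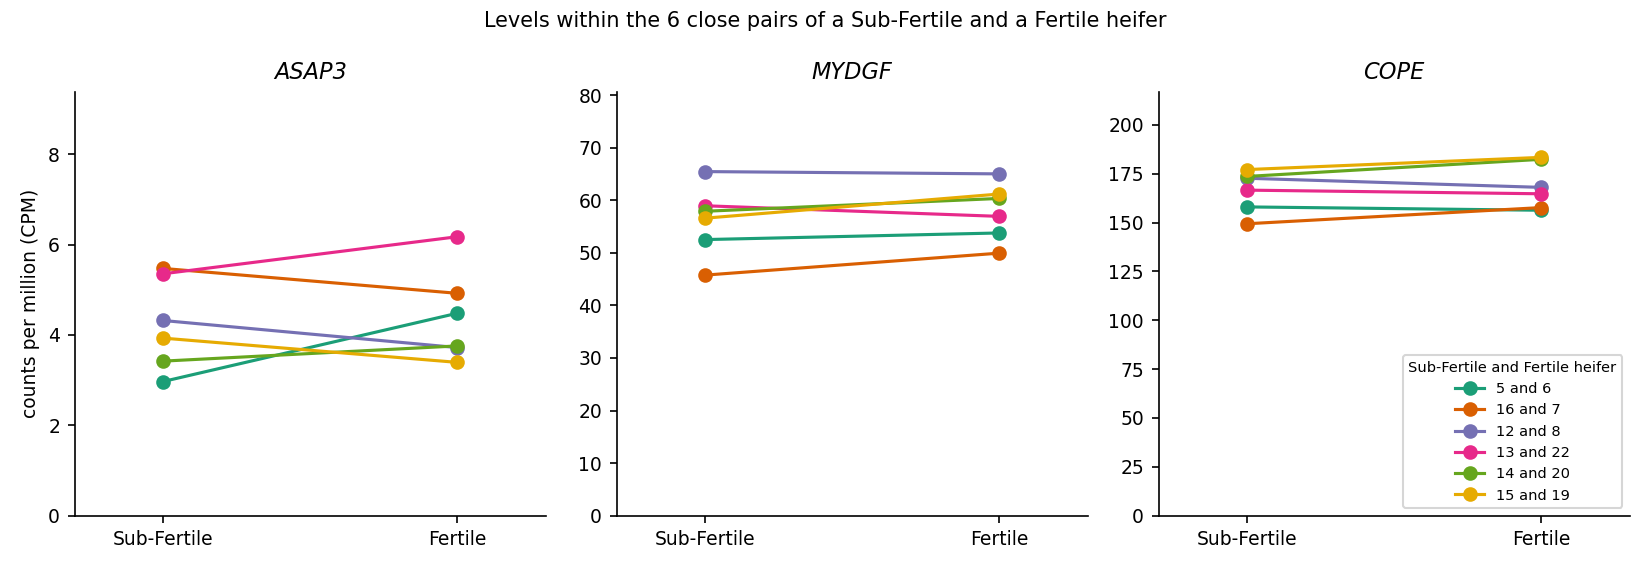
Levels of ASAP3, MYDGF and COPE in CPM (vertical axes, from 0) in the 6 close pairs, with the Sub-Fertile heifer at the left and the Fertile heifer at the right of each line. Lines for ASAP3 fall and climb in equal number, and those for MYDGF and COPE are nearly level. Of the 6 pairs, 2 (heifers 16 and 7, heifers 12 and 8) join an Angus with a Holstein heifer.

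Breed was a contrast that the choice did not use. The log2 fold change of Holstein over Angus heifers was -0.38 (SE 0.201) for ASAP3, with an edgeR adjusted p of 0.490. For MYDGF it was -0.079 (SE 0.0664) with an adjusted p of 0.661, and for COPE -0.083 (SE 0.0407) with an adjusted p of 0.470. None of the 3 passed an unadjusted p under 0.05 either, which 1439 genes (10.6%) did. With 1 heifer left out ASAP3 passed that limit in 4 of 22 fits, COPE in 5 and MYDGF in 0. Without heifer 10 the edgeR p of ASAP3 was 0.00588 (log2 fold change -0.53), and without heifers 10 and 18 it was 0.0150 for ASAP3 and 0.0410 for COPE. Over these 22 fits the lowest adjusted p was 0.317 for ASAP3 and 0.243 for COPE. No gene passed an adjusted p under 0.05 in edgeR (0.0%), whereas DESeq2 called 10 and had 1751 at an unadjusted p under 0.05.

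The levels by breed overlapped widely. ASAP3 ranged from 1.90 to 8.53 CPM in Holstein heifers (median 3.58) and from 3.32 to 7.76 CPM in Angus heifers (median 4.13). MYDGF ranged from 47.2 to 73.3 CPM in Holstein heifers (median 53.2) and from 45.8 to 71.7 CPM in Angus heifers (median 58.4). COPE ranged from 154 to 186 CPM in Holstein heifers (median 158) and from 149 to 197 CPM in Angus heifers (median 173). With close pairs as blocks, the log2 fold changes of Holstein over Angus were -0.18 (SE 0.156) for ASAP3, 0.018 (SE 0.0481) for MYDGF and -0.0088 (SE 0.0394) for COPE. Heifers outside the pairs do not enter these values either.

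Whether the fertility difference itself differed by breed was tested with an interaction term, the log2 fold change of Sub-Fertile over Fertile in Holstein minus that in Angus. It was -0.87 (SE 0.358) for ASAP3, with an unadjusted edgeR p of 0.0247 and an adjusted p of 0.463. An unadjusted p under 0.05 was reached by 1408 genes (10.4%), and 0 genes passed the adjusted threshold in edgeR or DESeq2, where 1659 had an unadjusted p under 0.05. The interaction of ASAP3 kept its direction in all 22 fits with 1 heifer left out, from -1.08 without heifer 18 to -0.59 without heifer 10. MYDGF had -0.027 (SE 0.136) and COPE 0.016 (SE 0.0830), with an edgeR adjusted p of 0.955 for each. For ASAP3 the difference between breeds did not survive adjustment, and for MYDGF and COPE it was smaller than its error.

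The 3 genes did not all vary together once breed and fertility were taken out of log2 CPM and the heifers of each close pair were averaged, which left 14 points. MYDGF and COPE had a Pearson r of 0.57 (permutation p = 0.0341, adjusted over 3 relations 0.102) and a Spearman rho of 0.59 (permutation p = 0.0277, adjusted 0.0489). Without the 2 points farthest from the median of MYDGF, r was 0.37. ASAP3 ran against COPE, with r = -0.47 (permutation p = 0.0928, adjusted 0.139) and rho = -0.58 (permutation p = 0.0326, adjusted 0.0489), and r = -0.59 without the 2 farthest points. This rho depended on the setting: it was -0.24 with TMM factors (permutation p = 0.416, adjusted 0.623) and -0.39 with each heifer as a point (adjusted 0.111). Without heifers 10 and 18 it was -0.71 (adjusted 0.0130). ASAP3 and MYDGF had r = -0.082 (permutation p = 0.781) and rho = -0.41 (permutation p = 0.146, also adjusted). The last r was -0.58 without the 2 points farthest from the median of ASAP3. With each of the 22 heifers as a point, r was 0.68 for MYDGF and COPE, -0.25 for ASAP3 and COPE, and 0.12 for ASAP3 and MYDGF. Over the 14 points, the r with log2 total counts was -0.096 for ASAP3, 0.24 for MYDGF and 0.031 for COPE, given as a description.

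Each gene had its own neighbours among the genes with a symbol. Symbols were at hand for 1227 of the genes tested, those with the smallest fertility p, and genes without a symbol were in part more like. Likeness was Pearson's r over 22 heifers with breed and fertility taken out, given with no test because the heifers of close pairs are not separate points, and then over the 14 points. Among them MYDGF was most like LRRC59, a ribosome-binding protein of the ER membrane (r = 0.90, and 0.92 over 14 points). Next came SEC23B of the COPII coat (r = 0.89), LMAN2, a lectin of the early secretory pathway (0.88), and VCP, an ATPase that draws misfolded proteins out of the ER (0.87). MANF, a secreted factor of the stressed ER, had 0.87 too. At the other end were APLF, a DNA repair factor (r = -0.67), and RASSF5, a Ras and Rap effector of lymphocytes (r = -0.68).

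The 5 genes with a symbol most like COPE were not of the pathway lists. POLR2L, a small subunit shared by the RNA polymerases, had r = 0.84, the highest of 10744 genes compared, and ROMO1, a protein of the mitochondrial inner membrane, had 0.82. SSNA1, a microtubule-associated protein, had r = 0.80. NDUFB11, a subunit of respiratory complex I, and STOML2, a mitochondrial membrane protein, had 0.79 and 0.78. Among those that ran against COPE was BIRC3, an inhibitor of apoptosis (r = -0.76).

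Of the genes with a symbol, ASAP3 was most like GATA3, a transcription factor of T cells (r = 0.80), and then like genes of dividing cells. GATA3 stood at rank 8 of the 10745 genes compared, below genes without a symbol (highest r 0.86), and only 7 of the 91 genes with r above 0.7 had one. The next with a symbol were KIF24, a kinesin of the centriole (r = 0.75), CDCA5, which protects sister chromatid cohesion (0.74), NCAPD3, a condensin subunit (0.73), and SKA2 of the kinetochore (0.73). The transcription factor POU2F2 of B cells had r = -0.90, the lowest of 10745 genes compared (-0.94 over 14 points), and LMO2, a blood transcription regulator, had r = -0.85. The lists of T cell and monocyte markers had no gene with a symbol here.

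Markers of the cell types in the preparation gave further values. Markers with a symbol are genes with a small fertility p, so their fertility values, here and below, are biased towards a difference. The B cell list had 1 of 14 genes with a symbol, BANK1, a B cell scaffold protein. BANK1 ranged from 342 to 512 CPM in Holstein Sub-Fertile and from 238 to 445 CPM in Holstein Fertile heifers, and from 265 to 378 CPM in Angus Sub-Fertile and from 245 to 380 CPM in Angus Fertile heifers. Heifers 10 (238 CPM) and 18 (245 CPM), the highest for ASAP3, had the lowest BANK1 of their groups. Over 14 points ASAP3 and BANK1 had r = -0.63 (permutation p = 0.0166, adjusted over 12 relations 0.0998) and rho = -0.56 (adjusted 0.239). Without the 2 points farthest from the median of BANK1, r was -0.28. In the same way it was -0.51 with TMM factors, -0.48 with each heifer as a point and 0.074 with heifers 10 and 18 left out first. How far the relation rests on a few points thus varied with the setting. The part of B cells in the level of ASAP3 was not tested.

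A sum of platelet markers, made up mostly of 1 gene, moved with COPE. The 2 of 10 platelet and megakaryocyte genes with a symbol were GP9 and ITGA2B, which encode platelet surface receptor chains. Their log2 fold changes of Sub-Fertile over Fertile were -0.63 (SE 0.318) for GP9 and -0.28 (SE 0.122) for ITGA2B, and only ITGA2B had an unadjusted edgeR p under 0.05. Their summed level ranged from 33.8 to 47.2 CPM in Holstein Sub-Fertile and from 37.5 to 73.1 CPM in Holstein Fertile heifers, and from 33.8 to 50.6 CPM in Angus Sub-Fertile and from 33.1 to 68.8 CPM in Angus Fertile heifers. Mean ITGA2B was 40.8 CPM in Holstein Sub-Fertile and 48.9 CPM in Holstein Fertile heifers, against 2.06 and 3.09 CPM for GP9. ITGA2B was also far above GP9 in Angus heifers, so the r with the sum stands mainly for ITGA2B. The other genes of the list had no symbol here and were not read. COPE had r = 0.75 with this sum over 14 points (permutation p = 0.00191, adjusted 0.0229) and rho = 0.70 (permutation p = 0.00722, adjusted 0.0866), and r = 0.82 without the 2 farthest points. The r was 0.74 with each heifer as a point, and with TMM factors it was 0.67 and no longer passed (adjusted permutation p = 0.0900). The part of platelets in the fertility difference of COPE was not tested.

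The neutrophil markers with a symbol, which have one because of a small fertility p, were higher in Sub-Fertile heifers. Whether the other markers of the list were higher too is not known here. For Sub-Fertile over Fertile the log2 fold change was 0.43 (SE 0.184) for the cytokine receptor CSF3R, 0.98 (SE 0.453) for the transglutaminase TGM3, 0.74 (SE 0.368) for the protease MMP9 and 0.35 (SE 0.228) for PGLYRP1, with a median of 0.58. CSF3R and TGM3 had an unadjusted edgeR p under 0.05, and none passed after adjustment. Group means were 203 to 350 CPM for CSF3R and 22.5 to 60.9 CPM for TGM3. MMP9 (1.31 to 3.57 CPM) and PGLYRP1 (1.16 to 1.68 CPM) lay near the filter limit of 1 CPM, so a sum of the markers stands mainly for CSF3R. These 4 of 18 summed to 262 to 652 CPM in Holstein Sub-Fertile and 119 to 353 CPM in Holstein Fertile heifers, and to 230 to 528 CPM in Angus Sub-Fertile and 242 to 391 CPM in Angus Fertile heifers. Over 14 points their sum had r = 0.036 with ASAP3, -0.41 with MYDGF and -0.40 with COPE, with adjusted permutation p of 0.967, 0.476 and 0.476. Eosinophil and basophil markers (CCR3 and FCER1A, 2 of 11) had r = 0.32 with ASAP3, 0.24 with MYDGF and 0.067 with COPE, and the lowest adjusted permutation p was 0.496. For Sub-Fertile over Fertile these 2 ran opposite ways, at -0.32 (SE 0.180) for CCR3 and 0.28 (SE 0.159) for FCER1A. Group means were 33.5 to 45.9 CPM for CCR3 and 8.39 to 11.5 CPM for FCER1A, so their sum stands mainly for CCR3. Neither list's part in the fertility differences was tested.

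Other genes of the pathway were read from 9 lists that hold 174 genes, of which 31 had a symbol here, the 3 genes included. The other 28 are those with a small fertility p, so their fertility values are biased towards a difference. Of the 28, 25 were lower in Sub-Fertile heifers, with a median log2 fold change of -0.13, against 57.5% lower and a median of -0.095 over all 1227 genes with a symbol. An unadjusted p under 0.05 was reached by 5 of the 28 (17.9%), all lower in Sub-Fertile heifers, a share near the 23.6% of all genes with a symbol. With TMM factors, and likewise with DESeq2, the count was 8 of the 28, with SEC13, SEC61A1 and SIL1 added. None passed an adjusted p under 0.05 in any of these fits.

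By role, the only COPI subunit with a symbol was COPE and the only ArfGAP was ASAP3. ARF4, an Arf GTPase of the early Golgi, had a log2 fold change of Sub-Fertile over Fertile of -0.070 (SE 0.0421), and CYTH4, an exchange factor that loads Arf GTPases, had 0.12 (SE 0.0763). Both COPII genes, SEC13 and SEC23B, had negative values (-0.12 and -0.13). All 6 genes of translocation into the ER had negative values too, with a median of -0.15 and 1 of 6 at an unadjusted p under 0.05: SSR2, a subunit of the translocon-associated complex, with -0.12 (SE 0.0518). All 10 ER lumen chaperones and factors, MYDGF among them, had negative values, with a median of -0.23. The ER chaperone HSPA5 had a log2 fold change of -0.21 (SE 0.106), its cochaperone SIL1 -0.16 (SE 0.0814), the disulfide isomerase PDIA4 -0.28 (SE 0.145) and MANF -0.31 (SE 0.167). Of these 10, 2 were at an unadjusted p under 0.05, MYDGF and SDF2, an ER protein of the chaperone complex (-0.12, SE 0.0466).

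Cargo receptors were split. Of 8 with a symbol, 6 were lower in Sub-Fertile heifers and 3 reached an unadjusted p under 0.05: LMAN2 (-0.11, SE 0.0499), TMED3 (-0.18, SE 0.0709) and TMED9 (-0.084, SE 0.0388), the TMED proteins being members of the p24 family that sorts cargo between ER and Golgi. TMED5 and TMED8 of the same family had positive values of 0.20 (SE 0.125) and 0.20 (SE 0.113).

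**Figure D4:**
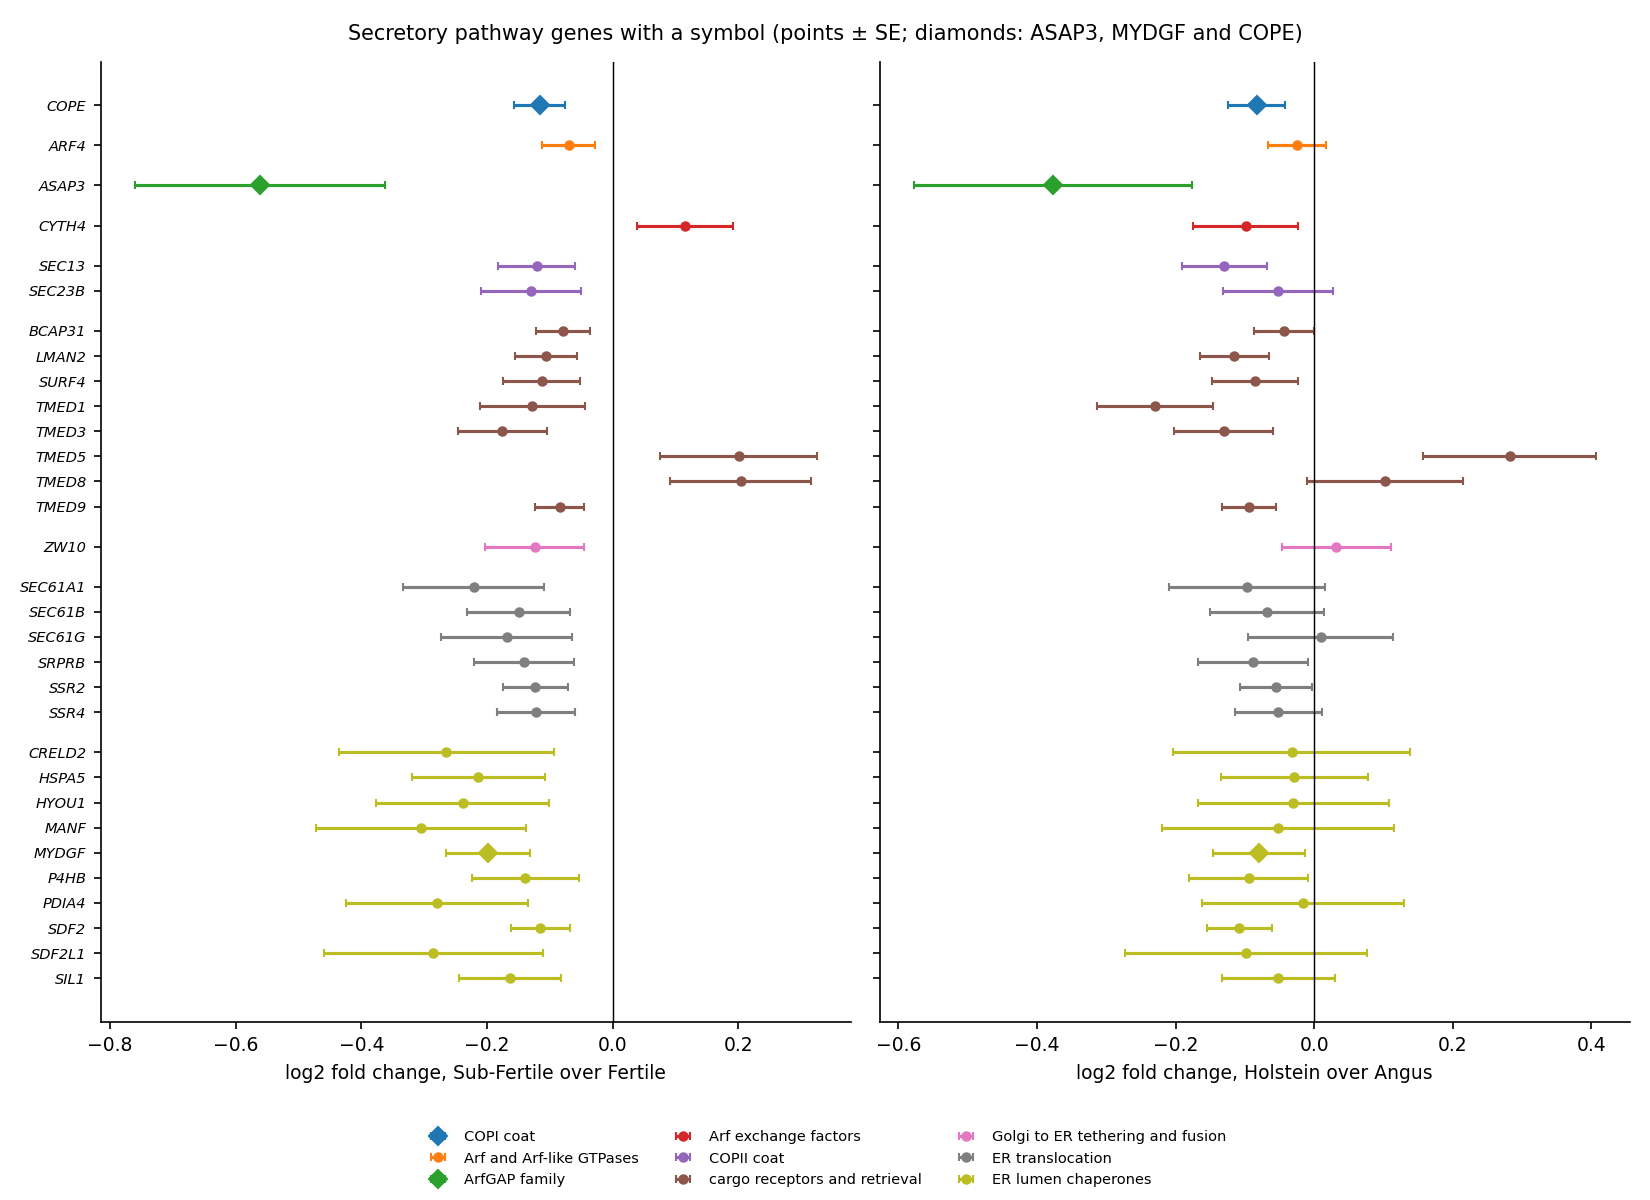
Log2 fold change with SE of the 31 pathway genes with a symbol, coloured by list, for Sub-Fertile over Fertile heifers (left) and Holstein over Angus heifers (right), with ASAP3, MYDGF and COPE as diamonds. For fertility 28 of 31 points lie below 0, and for breed 27 of 31.

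For breed, which neither the choice of the 3 genes nor the list of symbols used, 24 of the other 28 pathway genes were lower in Holstein than in Angus heifers. Their median log2 fold change of Holstein over Angus was -0.053, against 43.5% lower and a median of 0.024 over all genes with a symbol, and 54.1% lower and -0.013 over all genes tested. An unadjusted p under 0.05 was reached by 6 of the 28 (21.4%), near the 20.4% of all genes with a symbol. Over all genes tested the share was 10.6%, so genes with a symbol do not stand for all genes in breed either. Those lower in Holstein heifers were SEC13 (-0.13, SE 0.0617), LMAN2 (-0.12, SE 0.0501), TMED1 (-0.23, SE 0.0837), TMED9 (-0.094, SE 0.0389) and SDF2 (-0.11, SE 0.0467), and TMED5 (0.28, SE 0.124) was higher. With TMM factors, and likewise with DESeq2, 4 of these passed, without SDF2 and TMED9. No pathway gene passed an adjusted p under 0.05 for breed or for the interaction.

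The pathway genes followed MYDGF more closely than the other 2 genes from heifer to heifer. Of the 28, 15 (53.6%) had r above 0.7 with MYDGF over 22 heifers, against 11.3% of all genes with a symbol and 2.23% of all genes compared. The number was also 15 over the 14 points. The median r of the 28 with MYDGF was 0.76, against 0.034 over all genes compared. Besides those named above, SEC61A1, the channel of the ER membrane, had r = 0.83, SURF4, a cargo receptor, 0.83, and HSPA5 0.80. The exceptions included SDF2 (r = -0.17), TMED8 (-0.19) and the Arf exchange factor CYTH4 (-0.15). None of the 28 reached r above 0.7 with COPE, where the median was 0.38 and the highest was SEC13 (0.56), nor with ASAP3, where the median was 0.20 and the highest was SEC61G (0.51), the small subunit of the channel. An r above 0.7 was rarer with these 2 genes in general: with COPE it was reached by 2.31% of all genes with a symbol, and with ASAP3 by 0.622%. The low counts of ASAP3 also limit the precision of its r. These counts are a description, since pathway genes are not independent of each other, and their difference between the 3 genes was not tested.

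**Figure D5:**
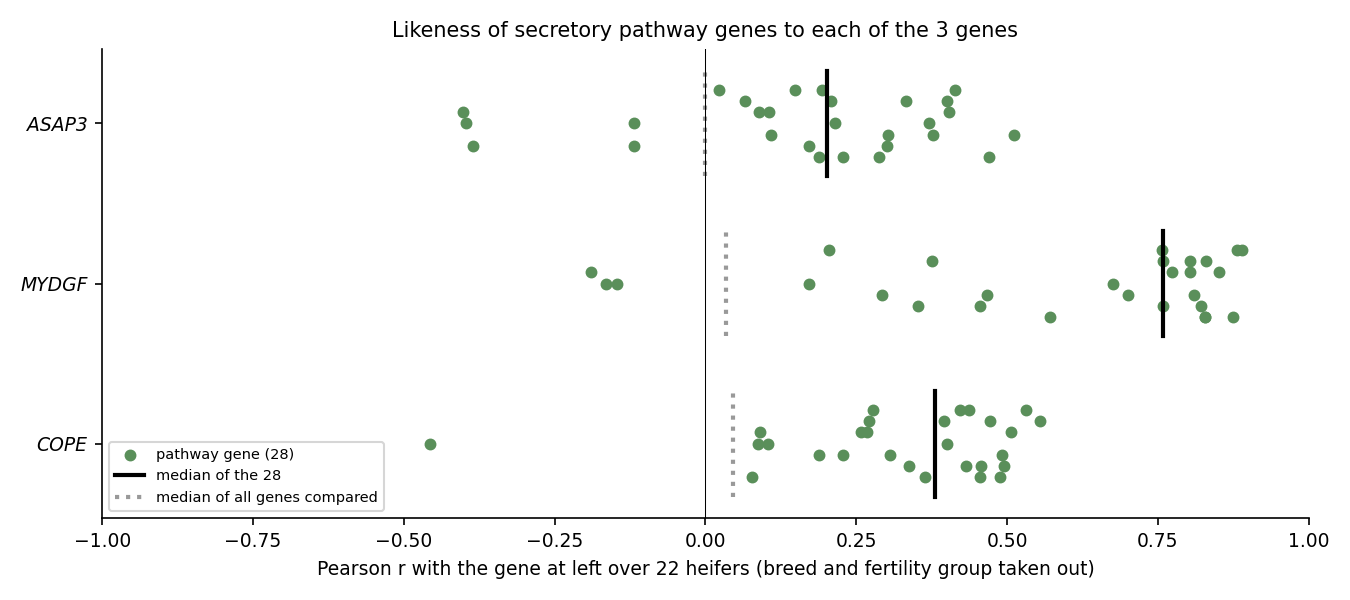
Pearson r over 22 heifers (horizontal axis) between each of 28 pathway genes (points) and ASAP3, MYDGF or COPE (rows), with the median of the 28 as a black line and that of all genes compared as a dotted line; height within a row has no meaning. The black lines stand at 0.20 for ASAP3, 0.76 for MYDGF and 0.38 for COPE.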

How the data were processed

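The authors aligned stranded mRNA reads of white blood cells to ARS-UCD1.2 with hisat2, removed duplicates with Samtools and biobambam2, and deposited whole-number counts per Ensembl gene from featureCounts, with no normalization. Tool versions and the strand setting are not given in the sources used here, and HISAT2, SAMtools and the build also stand in the submitters' processing notes. A gene was kept when its CPM, scaled by TMM, exceeded 1 in 5 heifers or more. In edgeR 4.0.16 (R 4.3.3), a quasi-likelihood model was fitted robustly with terms for breed and fertility, and a second model added their interaction. Library sizes were the summed counts of the kept genes. The lowest share of these in the total counts of a heifer was 99.87%. P-values were adjusted by Benjamini-Hochberg over all genes tested. DESeq2 1.42.0 was the alternative. The code was tested on simulated data. Log2 CPM used a prior count of 2, and correlations 100000 two-sided permutations (scipy 1.17.1). A close pair is 2 heifers each nearest to the other, with a biological coefficient of variation, over genes above 20 CPM, under 0.5 of the median of all pairings. Heifers were grouped by their labels, and the labels give no batch.

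The 3 genes, the 9 pathway lists and the marker lists were chosen with earlier results of these data known. Symbols came from the first 1401 rows of the authors' gene annotation table, 1227 of them used, and no fold change or p of that table was used. The rule for named genes took the 3 genes, the COPI subunits, list genes at an adjusted p under 0.05 or an unadjusted p under 0.01, and, for each of the 3 genes, the 5 genes with the highest and the 2 with the lowest r among genes with a symbol and a mean above 5 CPM, of which 1 is not reported here. Naming of other list genes and of JMJD1C came after their values had been seen. Of the marker lists, those of monocytes, T cells, natural killer cells and red blood cells had no gene with a symbol. The authors' filters on FPKM and biotype were not applied. Alternatives were TMM factors, DESeq2, other filters, added covariates, and leaving out heifers. Genotypes and plasma proteins were not analysed here.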

Additional observations from a re-analysis of the deposited data

Results flagged for a closer look

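Among 12 checks of a highest or lowest heifer within a group, 1 stood apart. Holstein Fertile heifer 10 had 8.53 CPM of ASAP3, and its gap to the next heifer of the group took 0.750 of the range of the group, above Dixon's critical value of 0.710 for 5 heifers. Such a check picks about 1 in 20 groups by chance. Angus Fertile heifer 18, with which it forms a close pair, had 7.76 CPM. Without both, the log2 fold change of Sub-Fertile over Fertile for ASAP3 was -0.32 in place of -0.56.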

How the results depend on the processing

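Over 14 settings of samples, scaling, filter and covariates, the fertility log2 fold change of each gene stayed negative. It moved by more than the spread between heifers for ASAP3 in Holstein heifers alone (-1.04), and with close pairs as blocks for ASAP3 (-0.10), MYDGF (-0.038) and COPE (-0.024). The rule of 3 tests took 25 genes, but 43 with no low count filter, 9 without heifers 10 and 18, and 7 (without heifer 10) to 67 (without heifer 22) with 1 heifer left out. DESeq2 called 10 genes for breed, edgeR 0. Changes of sign were small: the breed difference of MYDGF was 0.018 with close pairs as blocks. The interaction of MYDGF was 0.0051 without heifers 10 and 18 and between -0.085 and 0.056 with 1 heifer left out. That of COPE was -0.0033 with TMM factors and between -0.015 and 0.051 with 1 heifer left out. The r of MYDGF with COPE passed an adjusted p of 0.05 with each heifer as a point (0.68), with no group taken out (0.79) and without heifers 10 and 18 (0.65). A pass with each heifer as a point takes the heifers of a close pair as separate points, which they are not. With no group taken out, an r between the 3 genes also holds the fertility difference on which they were chosen. The r of ASAP3 with MYDGF turned positive with each heifer as a point (0.12), with TMM factors (0.0066) and with no group taken out (0.38), and that of ASAP3 with COPE with no group taken out (0.25). Without heifers 10 and 18, ASAP3 with MYDGF had r = -0.52 and rho = -0.64, and only the rho passed (adjusted permutation p = 0.0218). The rho of ASAP3 with COPE passed there too (-0.71), but not with TMM factors (-0.24) or with each heifer as a point (-0.39). The r of MYDGF was 0.46 with BANK1 and -0.0094 with eosinophil and basophil markers without heifers 10 and 18, and that of COPE with eosinophil and basophil markers was -0.11 with TMM factors. The r of ASAP3 with BANK1 passed with each heifer as a point (-0.68), and that of COPE with platelet markers no longer passed with TMM factors (0.67, adjusted permutation p = 0.0900). The cause was not tested for any of these. Of 28 other pathway genes, TMM factors and DESeq2 each gave 8 at an unadjusted p under 0.05 for fertility in place of 5, and 4 for breed in place of 6. The filter without TMM scaling, the counts of the rule and the correlations without heifers 10 and 18 were added after seeing the data. The low counts of ASAP3 limit its precision.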

Other observations

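CYTH4, a guanine exchange factor that loads Arf GTPases with GTP, had an interaction of breed and fertility opposite in sign to that of the ArfGAP ASAP3. CYTH4 averaged 217 ± 16.3 CPM in Holstein Sub-Fertile and 174 ± 16.7 CPM in Holstein Fertile heifers, against 207 ± 30.6 CPM in Angus Sub-Fertile and 214 ± 19.1 CPM in Angus Fertile heifers (SD, n = 5, 5, 7 and 5). The interaction was 0.36 (SE 0.135) on the log2 scale, with an edgeR adjusted p of 0.463, so it did not pass, and CYTH4 had r = -0.40 with ASAP3 over 22 heifers. CYTH4 was named after its values were seen.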
